A study of Mus musculus with 15 samples.

Results

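The cytosolic ribosome is built from a small 40S and a large 60S subunit, and the messenger RNAs (mRNAs) of its proteins were followed here through IL-3 stimulation and Stat5 knockdown in a mouse pro-B cell line. The probe sets were chosen by annotation alone: every probe set assigned to 1 gene with a symbol that starts with Rpl or Rps and a digit, or to Rplp0, Rplp1, Rplp2 or Rpsa. Kinases of the Rps6k family, Rps19bp genes and symbols marked as pseudogenes were left out. This gave 70 of 36701 non-control probe sets, for 44 of 15964 named genes, of which 21 encode 40S and 23 encode 60S proteins or their paralogs. A further 52 probe sets named a ribosomal protein gene together with other genes and were kept apart.

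Growth factors such as IL-3 push cells to make more ribosomes. In mammals the ribosomal proteins are encoded by dispersed single genes whose mRNAs are among the most abundant and most stable in a dividing cell. Most of these mRNAs begin with a cytosine followed by a run of pyrimidines, the 5′ terminal oligopyrimidine (TOP) motif, through which mTOR signalling controls their translation, so that supply of the proteins is commonly adjusted at translation rather than by mRNA level. Assembly factors, rRNA processing factors and RNA polymerase I subunits, in contrast, are well-known transcriptional targets of MYC. STAT5A and STAT5B are the transcription factors that the IL-3 receptor activates through JAK2.

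Ba/F3-beta cells are a derivative of Ba/F3, a line that depends on IL-3. They carried either a control siRNA (scramble I) or siRNAs against both Stat5A and Stat5B, and all conditions came from such transfected cells. Cells with scramble I were taken unstimulated and after 30 min or 2 h of IL-3, and cells with the Stat5A/B siRNAs after 30 min or 2 h of IL-3, which makes 5 conditions; unstimulated Stat5 siRNA cells were not analysed here. Each condition was read on 3 Affymetrix designs (U74A, U74B, U74C), which gave 15 arrays with 1 array per condition and design. There were therefore no replicates, no test between conditions was possible, and every value below is the value of 1 array; differences describe these arrays.

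The targeted genes were lower in the Stat5 siRNA cells but not absent. At 30 min the Stat5a probe sets read 548 and 316 with control siRNA against 277 and 150 with the knockdown, and at 2 h they read 475 and 254 against 254 and 96.5, so 38.1% to 53.6% of the control signal was left. The measured Stat5b probe set read 499 against 166 at 30 min and 177 against 126 at 2 h, so 33.2% and 71.3% was left. Without IL-3 it read 536 with control siRNA. Of 9 pro-B and B lineage markers with a probe set, 4 were measured (Cd79b, Csf2rb, Il3ra and Ptprc), with a summed signal of 6516 to 9732; Cd79a, Ebf1, Igll1, Pax5 and Vpreb1 were not. None of 6 myeloid markers was measured (summed signal 137 to 214), against 1 of 5 T and NK cell markers (Nkg7; 1097 to 1485), 2 of 5 fibroblast and epithelial markers (Col1a2 and Epcam; 861 to 951) and 3 of 3 erythroid markers (Gata1, Klf1 and Hba-a1; 862 to 2201). Their part in the results below was not tested. In such pooled RNA fewer cells with an mRNA and less of it per cell cannot be told apart, and since all arrays were scaled to one level, a change shared by all mRNAs would not be seen.

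The first bases of several of these mRNAs are shown because the TOP motif is the sequence feature the family is known for. RefSeq start sites on GRCm38.p6 were available for 37 of the 44 genes. Each line holds 30 bases of the mRNA-like strand, 15 before the annotated start and 15 from it. The start is thus the base after the first 15. Capitals mark a run from a cytosine within 5 bases of the start through the pyrimidines after it, at least 4 of them. Pyrimidines directly before that cytosine are not in capitals.
Rplp2, chr7:141447636-141447665, plus strand: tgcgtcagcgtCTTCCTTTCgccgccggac
Rpl38, chr11:114668565-114668594, plus strand: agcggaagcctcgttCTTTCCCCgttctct
Rps10, chr17:27635230-27635259, minus strand: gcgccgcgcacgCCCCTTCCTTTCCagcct
Rps18, chr17:33955651-33955680, minus strand: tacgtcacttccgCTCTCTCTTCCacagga
Rps27, chr3:90213634-90213663, minus strand: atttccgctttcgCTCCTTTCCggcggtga
Rps27l, chr9:66946071-66946100, plus strand: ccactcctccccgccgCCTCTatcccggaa
Rps13, chr7:116334176-116334205, minus strand: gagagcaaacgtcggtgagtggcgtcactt
In Rplp2, Rpl38, Rps10, Rps18 and Rps27 the annotated start itself is a cytosine followed by at least 4 pyrimidines. The run is shorter and off the start in Rps27l, a paralog of Rps27, and was not found within these 5 bases in Rps13, the member with the largest ratio in these data.

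A pattern of at least 5 such bases (C, then 4 or more C or T) at the annotated start was present in 8 of 37 member genes (21.6%), against 2.67% of 17492 protein-coding genes. Within 5 bases of the start it was present in 15 of 37 (40.5%), against 21.5%. Annotated starts can be off by some bases, and a missing match says only that these letters are not in the window. The palindrome TTCNNNGAA, the core bound by STAT5, occurred in the 300 bases from 250 before to 50 after the start in 1 of 37 member genes (2.7%), against 8.92% of protein-coding genes. That gene was Rplp0, with the match 233 bases before its start on the plus strand of chromosome 5.
Rplp0, chr5:115559224-115559252, plus strand, TTCNNNGAA in capitals: cagctagggtTTCGCAGAAagttgttttg
The palindrome reads alike on both strands. A match is a description and no evidence of binding.

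Signals are MAS5 intensities on a linear scale, and a probe set counted as measured where at least 1 array reached a floor of 120 (119.8 before rounding). Of the 70 member probe sets, 39 for 33 genes were measured (55.7%, against 39.7% of all non-control probe sets), 35 of them on all 5 arrays. The measured ones comprised 25 of 49 on U74A, 0 of 1 on U74B and 14 of 20 on U74C. For 11 genes no probe set was measured: Rpl27, Rpl32, Rpl35a, Rpl37, Rpl39, Rpl39l, Rps4l, Rps6, Rps15, Rps15a and Rps29. Rpl39l and Rps4l are paralogs of Rpl39 and Rps4x, and Rps4l is listed as a transcribed pseudogene; the others encode core proteins that every ribosome contains, so a signal under the floor does not show a missing mRNA.

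Probe sets of one gene differed widely in brightness. Rps20 read 35148 to 41422 with one probe set and under 35 with both others. Rps24 read 7330 to 8012 with one and 12.1 to 24.9 with another. The bright probe sets of Rps20 and Rps24 are of types that can cross-hybridise. Rps4x, an X-linked 40S protein, had 1 probe set at 6705 to 7498 and 4 others whose highest signal was 35.5. The level of one probe set therefore says nothing about the level of another, and only ratios between arrays are compared. The 31 member probe sets under the floor on all arrays peaked at 83.2, and 24 of them never reached 50.

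**Figure D1:**
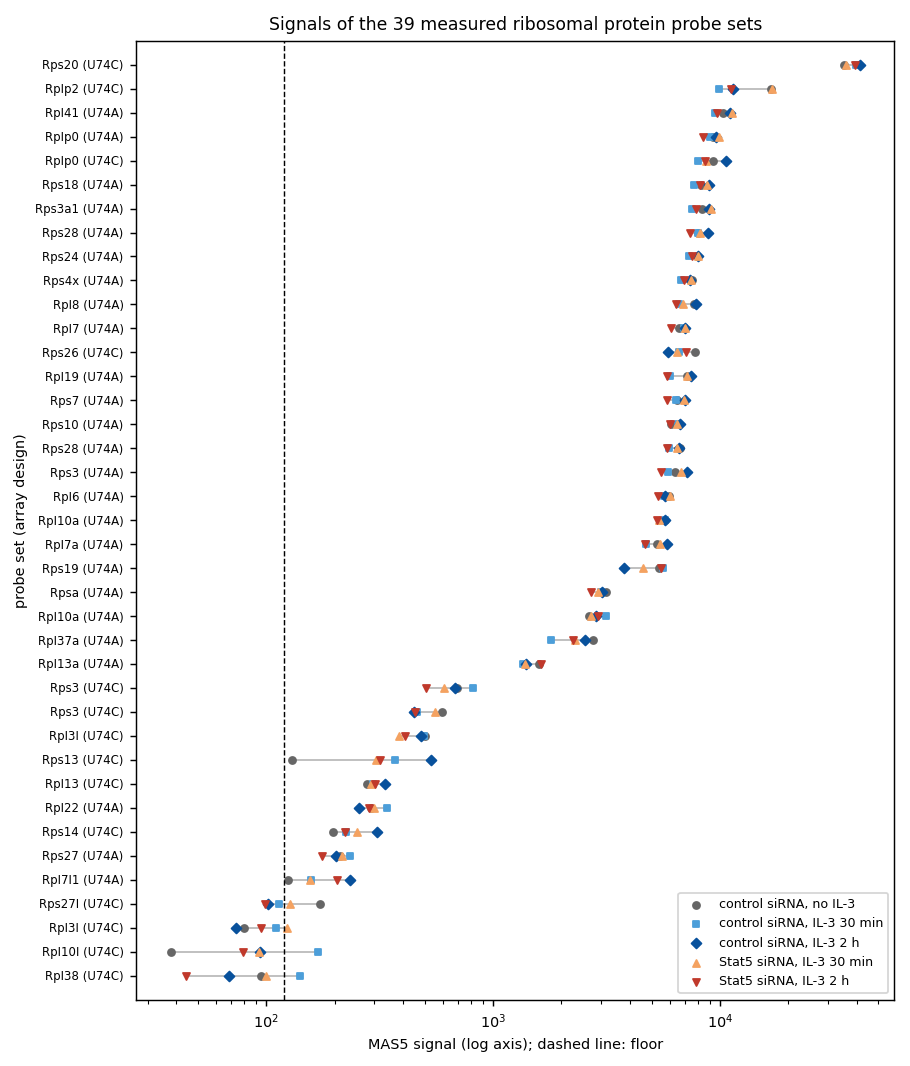
MAS5 signal (log axis) of the 39 measured ribosomal protein probe sets on the array of each of the 5 conditions, 1 point per array, with a grey line from the lowest to the highest signal and the floor of 119.8 as a dashed line. The upper 26 rows, all with a mean of at least 1465, have tightly clustered points, and Rps13 on U74C, at 130 without IL-3 and 531 after 2 h, is the widest row among those above the floor on all arrays.

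The measured members formed a bright and a dim group. 26 probe sets of 23 genes had mean signals of 1465 or more, 22 on U74A and 4 on U74C, and the other 13 had means of 653 or less; the boundary of 1000 was set after this gap was seen. The bright members were steady. Their highest of 5 signals exceeded the lowest by a median of 1.19-fold, with a range of 1.09-fold (1 Rpl10a probe set) to 1.70-fold (Rplp2). The median was 1.32-fold for 1204 non-ribosomal probe sets with a mean of at least 1000, and 1.61-fold for the dim members. The 1204 come from all 3 designs and were not matched to the bright members in signal. Whether steadiness is particular to ribosomal protein mRNAs was therefore not tested.

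After 30 min of IL-3 the ribosomal protein mRNAs were close to their unstimulated signals. Among 38 measured members, 1 was at least 2-fold higher (Rps13) and 0 were 2-fold lower, and the median log2 ratio was -0.055. Across all 13277 measured probe sets 0.821% were 2-fold higher and 0.587% lower, with a median of -0.010, so 1 of 38 is near the background. Above 0 were 15 of the 38 members. At 1.5-fold, 1 member was higher and 2 were lower (Rplp2 on U74C and Rpl37a), beside 3.59% and 3.33% of all probe sets.

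After 2 h of IL-3 they were again close to them. Among 36 measured members, 1 was at least 2-fold higher (again Rps13) and 0 were lower, with a median log2 ratio of 0.038 and 20 of 36 above 0. Of all 13596 measured probe sets 2.49% were higher and 2.04% lower at that size, with a median of -0.026. At 1.5-fold, 3 members were higher (Rps13, Rpl7l1 and Rps14 on U74C) and 0 were lower, beside 8.69% and 9.02% of all probe sets. The 30 min and the 2 h ratios share the unstimulated arrays.

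No member differed by 2-fold between Stat5 siRNA and control siRNA at either time. The control IL-3 array of a time enters both its IL-3 ratio and its Stat5 siRNA ratio. A high or low value on that array therefore moves the 2 ratios in opposite directions. At 30 min the median log2 ratio against control siRNA was 0.041 over 39 members, 23 of them above 0, and 0.0014 over all probe sets, of which 0.416% were 2-fold higher and 0.446% lower. This small positive median turned to -0.055 when arrays were scaled on the median probe set and to -0.028 after quantile normalization. At 2 h the median was -0.18 over 35 members, with 29 below 0 and 6 above. It was -0.083 with median scaling and -0.030 after quantile normalization. All probe sets had a median of 0.0031 there, with 50.4% above 0, and 0.631% were 2-fold higher and 0.564% lower. At 1.5-fold, Rplp2 on U74C was higher at 30 min and Rps13 was lower at 2 h. Background shares at that size were 2.67% higher and 2.93% lower at 30 min, and 4.09% higher and 3.69% lower at 2 h.

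Between 30 min and 2 h of IL-3, members had a median log2 ratio of 0.13 with control siRNA (37 measured, 26 above 0) and of -0.11 with Stat5 siRNA (37 measured, 9 above 0). All measured probe sets had medians of -0.010 and -0.013 there, with 48.8% and 48.4% above 0. After quantile normalization the members' medians were 0.00 and -0.013, and with the floor halved the first was 0.059. None of the members differed by 2-fold. The background shares were 1.97% higher and 1.73% lower with control siRNA, and 1.67% and 1.27% with Stat5 siRNA. At 1.5-fold, where they were 7.38% and 8.05%, and 7.01% and 6.5%, the single member past the threshold was Rplp2 on U74C, lower with Stat5 siRNA. Scaling on the median probe set turned the Stat5 siRNA median to 0.054. These ratios use the same arrays as those above and add no new measurement.

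**Figure D2:**
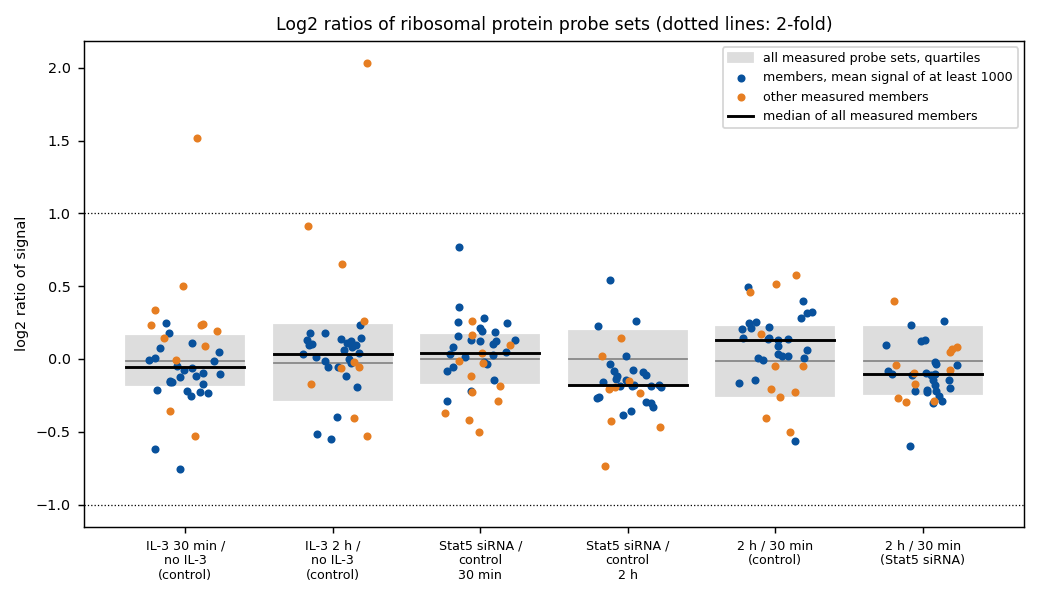
Log2 ratio of each measured ribosomal protein probe set in 6 comparisons, blue for a mean signal of at least 1000 and orange for the others, with the members' median as a black line and the quartiles and median of all measured probe sets in grey. Apart from Rps13, at 1.52 and 2.04 in the IL-3 comparisons, all points lie inside the dotted 2-fold lines, and most points lie below 0 for Stat5 siRNA at 2 h.

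The medians of both subunits were close to each other. In the order IL-3 at 30 min and 2 h, then Stat5 siRNA at 30 min and 2 h, the median log2 ratios of the 60S probe sets were -0.049, 0.038, 0.037 and -0.18. Those of the 40S probe sets were -0.061, 0.014, 0.093 and -0.17. At 2 h of Stat5 siRNA 14 of 17 measured 60S and 15 of 18 measured 40S probe sets were below the control array.

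The P stalk, which recruits the GTPase translation factors to the 60S subunit, was represented by Rplp0 and Rplp2. Rplp0 on U74A read 9363 without IL-3, 9053 at 30 min and 9613 at 2 h with control siRNA, and 9902 and 8460 at these times with Stat5 siRNA. Its U74C probe set, whose type can cross-hybridise, read 9350, 8011, 10582, 8718 and 8588 in the same order. In both the Stat5 siRNA signal was above the control at 30 min (log2 ratios 0.13 and 0.12) and below it at 2 h (-0.18 and -0.30).

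Rplp2, whose only measured probe set can also cross-hybridise, had the widest range of all bright members. Its signals on U74C were 16795 without IL-3, 9933 at 30 min and 11447 at 2 h with control siRNA, and 16930 and 11199 with Stat5 siRNA. The unstimulated array and the Stat5 siRNA array at 30 min were high and the other 3 were low. The log2 ratios were -0.76 and -0.55 for IL-3 and 0.77 and -0.032 for Stat5 siRNA.

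Rpl19 and Rpl22 lie near the exit of the tunnel through which the new protein leaves the 60S subunit, as does Rpl38. Rpl19 read 7168, 6000 and 7482 with control siRNA and 7148 and 5845 with Stat5 siRNA, and its log2 ratio for Stat5 siRNA at 2 h (-0.36) was the lowest of the 60S probe sets. Rpl22, known for its need in T lymphocyte development, read 290, 341 and 257 with control siRNA and 299 and 284 with Stat5 siRNA. Rpl38 reached the floor on 1 array, at 141 for control siRNA at 30 min, beside 68.6 for control siRNA at 2 h. Its log2 ratios, 0.23 in size, are bounds because the other array was raised to the floor, and its probe set can cross-hybridise.

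Other 60S proteins differed little. Rpl37a had the second widest range among bright members, with 2753, 1797 and 2535 for control siRNA and 2299 and 2242 for Stat5 siRNA; its lowest array was control siRNA at 30 min (log2 ratio -0.62). Rpl10a, a protein of the mobile L1 stalk, had the steadiest probe set, at 5257 to 5727. Its other measured probe set, whose type can cross-hybridise, read 2657 to 3152 (1.19-fold), with a log2 ratio of 0.25 for IL-3 at 30 min. Rpl13a, which in myeloid cells can leave the ribosome to silence inflammatory mRNAs, was higher with Stat5 siRNA at 2 h (1390 to 1627, log2 ratio 0.23). Rpl41, the smallest ribosomal protein, Rpl6, Rpl7, Rpl7a and Rpl8, the last near the peptidyl transferase centre, had log2 ratios between -0.33 and 0.24 in the IL-3 and siRNA comparisons. The Rpl41 probe set can cross-hybridise.

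Among 40S proteins Rps13 stood out. Its U74C probe set read 130 without IL-3, 371 at 30 min and 531 at 2 h with control siRNA, and 304 and 319 with Stat5 siRNA. The unstimulated array was the lowest and the control array at 2 h the highest. The log2 ratios were 1.52 at 30 min and 2.04 at 2 h for IL-3 (2.86-fold and 4.10-fold), and -0.29 and -0.74 for Stat5 siRNA. The other Rps13 probe set, on U74A, stayed between 9.9 and 37.9 and gives no second reading. The unstimulated signal lay just above the floor, and with the floor doubled or added as a pseudocount the 30 min ratio fell short of 2-fold (0.63 and 0.98) while the 2 h ratio did not (1.15 and 1.38).

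The IL-3 ratios of Rps13 exceeded the SD between probe sets of one gene. They were named as the largest of all members, and the largest differences within a pair of probe sets were bigger. Over pairs of probe sets for one gene on U74C, the SD of a single log2 ratio was 0.39 for IL-3 at 30 min (419 pairs) and 0.44 at 2 h (413 pairs). The largest differences within a pair were 2.03 and 2.72, and 27 and 42 pairs were at least 2-fold apart. This is spread between probes on the same arrays and not between cultures. In Stat5 siRNA cells at 2 h the Rps13 ratio of -0.74 compares with an SD of 0.36 (406 pairs).

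Rps3, which lines the entry of the mRNA channel, had 3 measured probe sets. On U74A it read 6319, 5895 and 7157 with control siRNA and 6741 and 5476 with Stat5 siRNA, a log2 ratio of 0.19 at 30 min and -0.39 at 2 h. The U74C probe sets, whose type can cross-hybridise, read 595, 464, 449, 556 and 455 and 690, 816, 680, 611 and 506 in that order. Their Stat5 siRNA ratios were 0.26 and -0.42 at 30 min, and 0.018 and -0.43 at 2 h, so the probe sets of this gene did not give one direction.

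At the exit of the mRNA channel sit Rpsa, Rps14, Rps26 and Rps28. Rpsa, also known as the laminin receptor, read 3133, 3003 and 3011 with control siRNA and 2894 and 2696 with Stat5 siRNA. Rps26 read 7751, 6617 and 5892 with control siRNA and 6453 and 7061 with Stat5 siRNA, from a probe set that can cross-hybridise. Its log2 ratio was -0.40 for IL-3 at 2 h and 0.26 for Stat5 siRNA at 2 h. Rps14, whose loss underlies the anaemia of the 5q deletion in people, read 196, 224 and 309 with control siRNA and 252 and 223 with Stat5 siRNA, from a probe set that can cross-hybridise. Its log2 ratios were 0.65 for IL-3 and -0.47 for Stat5 siRNA, both at 2 h. The 2 measured Rps28 probe sets lay at 5842 to 8817, and the third at 19.1 to 31.8.

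Rps19, the protein most often mutated in Diamond-Blackfan anaemia, read 5411 without IL-3, 5599 at 30 min and 3783 at 2 h with control siRNA, and 4584 and 5505 with Stat5 siRNA. The control array at 2 h was the lowest, and it enters both 2 h ratios, with opposite sign. The log2 ratio was 0.049 for IL-3 at 30 min and -0.52 at 2 h, and -0.29 for Stat5 siRNA at 30 min and 0.54 at 2 h, the highest of all members there. Over pairs of probe sets for one gene on U74A the SD of a single log2 ratio was 0.25 for IL-3 at 2 h and 0.23 for Stat5 siRNA at 2 h.

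On a list of genes linked to Diamond-Blackfan anaemia, which does not hold every such gene (Rps27 and Rps28 are not on it), 5 were measured: Rps7, Rps10, Rps19, Rps24 and Rps26. Rps24 and Rps26 were measured only with probe sets that can cross-hybridise. The 5 genes did not share a direction. Their median log2 ratios were -0.014 and 0.014 for IL-3 and -0.018 and -0.083 for Stat5 siRNA at 30 min and 2 h. Rps10, in the beak of the 40S subunit, read 6060, 6546 and 6634 with control siRNA and 6464 and 6005 with Stat5 siRNA. Rps3a1 read 8336, 7501 and 8927 with control siRNA and 9136 and 7857 with Stat5 siRNA, which gave log2 ratios of 0.28 at 30 min and -0.18 at 2 h.

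Of the paralogs of core proteins, Rpl3l, Rpl7l1, Rpl10l and Rps27l were measured. Rpl7l1, a nuclear relative of Rpl7 thought to act in ribosome assembly, read 125 without IL-3, 158 at 30 min and 235 at 2 h with control siRNA, and 156 and 206 with Stat5 siRNA. Its arrays at 2 h were the highest, with a log2 ratio of 0.91 for IL-3 at 2 h (1.88-fold) and of -0.19 for Stat5 siRNA. Rpl7 itself had ratios of 0.080 and -0.20 there, from a probe set of the type ending _s_at. Its other probe set stayed between 1.0 and 6.1 and gives no second reading.

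Rps27l, a p53 target, read 173 without IL-3, then 114 and 102 with control siRNA and 128 and 98.4 with Stat5 siRNA. Measured against the floor it was at least 1.44-fold lower at both times of IL-3, while Rps27 read 211, 233, 203, 215 and 176. Rpl10l, a testis paralog, reached the floor on 1 array, at 169 for control siRNA at 30 min beside 38.0 without IL-3, at least 1.41-fold higher. Rpl3l, a paralog of striated muscle, gave 499, 496, 480, 384 and 407 with a probe set that can cross-hybridise, while the Rpl3 gene has no probe set of its own among the members.

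**Figure D3:**
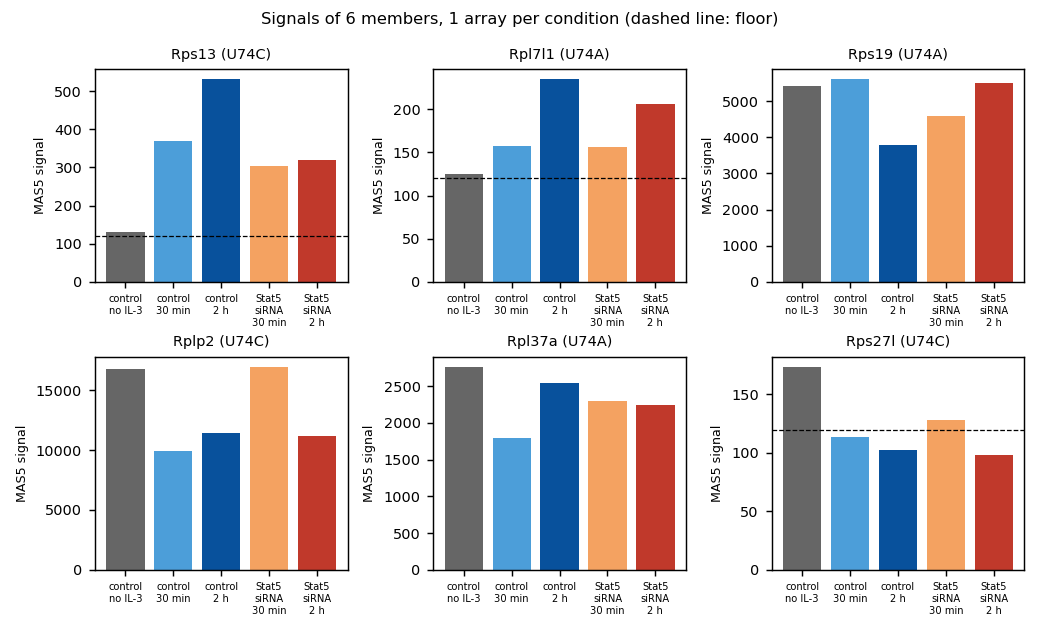
MAS5 signal, from 0 on a linear axis that differs between panels, of 6 ribosomal protein probe sets, with 1 bar per condition (1 array each, no error) and the floor dashed in the dim ones. Rps13 is lowest without IL-3 (130), Rps19 is lowest with control siRNA at 2 h (3783), and Rplp2 is high on 2 of 5 arrays (16795 and 16930).

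The bright members on U74A shared small shifts. Their median signal was 6536 without IL-3, 6197 at 30 min and 7016 at 2 h with control siRNA, and 6792 and 5844 with Stat5 siRNA. The Stat5 siRNA array at 2 h was the lowest of 5 for 13 of the 22 probe sets, and the control array at 30 min for 7. In median log2 ratio this was -0.10 and 0.050 for IL-3 and 0.11 and -0.18 for Stat5 siRNA at 30 min and 2 h. Higher at 30 min and lower at 2 h of Stat5 siRNA, comparisons that share no array, were 16 of these 22, and 19 of the 35 members measured at both times, beside 45 of 100 non-ribosomal U74A probe sets with a mean signal of at least 2500. The spread was 0.23 (SD) for a single ratio between probe sets of one gene on U74A at either time.

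The brightest other probe sets of the same arrays moved alongside in part. For 100 non-ribosomal U74A probe sets with a mean signal of at least 2500 the medians were -0.065 and -0.033 for IL-3 and 0.0089 and -0.13 for Stat5 siRNA, and 81 of 100 were below 0 for Stat5 siRNA at 2 h. The 20 members above that level had -0.088, 0.071, 0.11 and -0.18. The Stat5 siRNA array at 2 h was the lowest of 5 for 44 of the 100, and the control array at 30 min for 23. Their 99th percentile signal, over all non-ribosomal U74A probe sets, was 2186 on that array and 2239 to 2329 on the others.

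Quantile normalization, which gives the brightest probe sets of every array the same values by construction, brought the bright U74A members to medians of -0.0095, 0.00, 0.00 and -0.0084. The 4 bright members on U74C had medians of -0.23, -0.11, 0.043 and -0.055, beside 0.080, 0.12, -0.030 and -0.028 for 152 non-ribosomal U74C probe sets above 2500. How much of the shared shift belongs to the arrays and how much to the ribosomal protein mRNAs cannot be told apart with 1 array per condition.

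**Figure D4:**
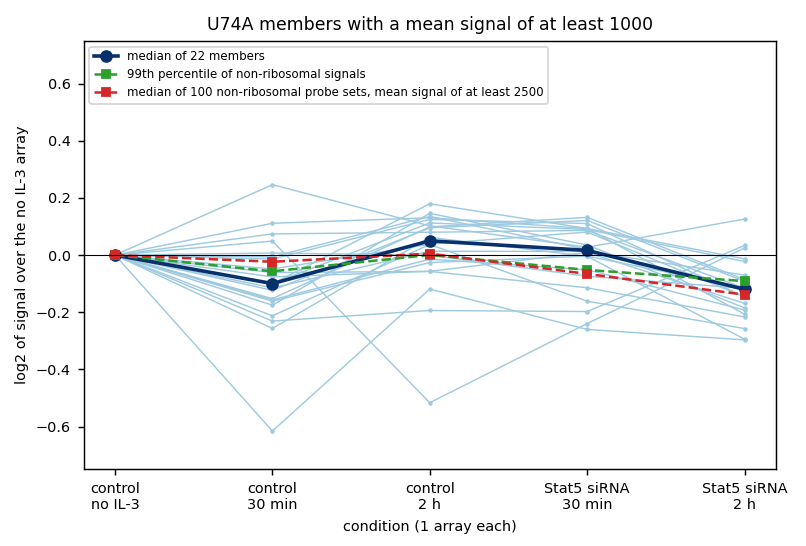
Log2 of signal over the unstimulated array for the 22 bright U74A members (thin lines) and their median (dark line), 1 array per condition. Dashed lines show the 99th percentile of all non-ribosomal U74A probe sets and the median of the brightest 100 of them. The members' median lies below 0 on the control array at 30 min and on the Stat5 siRNA array at 2 h, where the dashed lines also do. The dashed lines lie below 0 on the Stat5 siRNA array at 30 min too, where the members' median does not. The line that is lowest at control 2 h is Rps19.

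Of the 52 probe sets that name a ribosomal protein gene with other genes 42 were measured, and the 23 on U74A with a mean of at least 2500 had medians of -0.15 and 0.034 for IL-3 and 0.088 and -0.17 for Stat5 siRNA. They are described as a group only, because their signal cannot be given to one gene.

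Many genes that assemble ribosomes had higher signals at 2 h of IL-3, where most ribosomal proteins themselves were near their unstimulated level. Of 39 measured genes on a list of ribosome biogenesis factors, 16 were at least 2-fold higher at 2 h of IL-3 and 0 lower, beside 2.49% and 2.04% of all probe sets. The median log2 ratio was 0.63, and 35 of 39 were above 0; Tsr1, which matures the 40S subunit, was at 2.46 and the nucleolar GTPase Gnl3 at 2.40, while the lowest was Ubtf at -0.40. At gene level the ribosomal proteins had 1 of 31 higher, 0 lower and a median of 0.037. At 30 min 0 of 33 biogenesis genes were 2-fold higher, with a median of -0.0039. Fewer biogenesis genes were measured then than at 2 h. Some of the 39 were therefore under the floor without IL-3, entered through the 2 h array and could only come out higher. With Stat5 siRNA at 2 h, 0 of 40 biogenesis genes differed by 2-fold, with a median of 0.079 beside -0.18 for 30 ribosomal protein genes. Over probe sets the latter shrank to -0.030 after quantile normalization, as given above, and the 100 brightest non-ribosomal U74A probe sets were at -0.13.

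Other genes with TOP mRNAs, chiefly translation factors, also stayed within 2-fold. At gene level 0 of 16 measured genes on that list differed by 2-fold in the 6 comparisons, although 1 probe set of Eef2 did with Stat5 siRNA at 30 min (1.14), and their medians were -0.050 and -0.0041 for IL-3 and -0.085 and -0.042 for Stat5 siRNA. Elongation factor Eef1a1 had -0.22 and 0.12 for IL-3 and 0.31 and -0.22 for Stat5 siRNA, and Eef2 had 0.60 for Stat5 siRNA at 30 min. Npm1, which stands on this list and on the biogenesis list, was at 0.0022 for IL-3 at 2 h.

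Mitochondrial ribosomal proteins, which the nucleus encodes for a separate ribosome, had a median of 0.061 over 65 genes at 2 h of IL-3. At gene level 0 of the 65 were 2-fold higher and 1 was lower (Mrps35, -1.14), beside 2.49% and 2.04% of all probe sets. A single probe set of the list was 2-fold higher there (1.65). For Stat5 siRNA at 2 h the gene-level median was 0.069. A list of 7 measured housekeeping genes had medians of 0.028 and -0.12 for IL-3 and -0.11 and -0.026 for Stat5 siRNA, with 1 of 7 past 2-fold, B2m with Stat5 siRNA at 2 h (1.32).

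**Figure D5:**
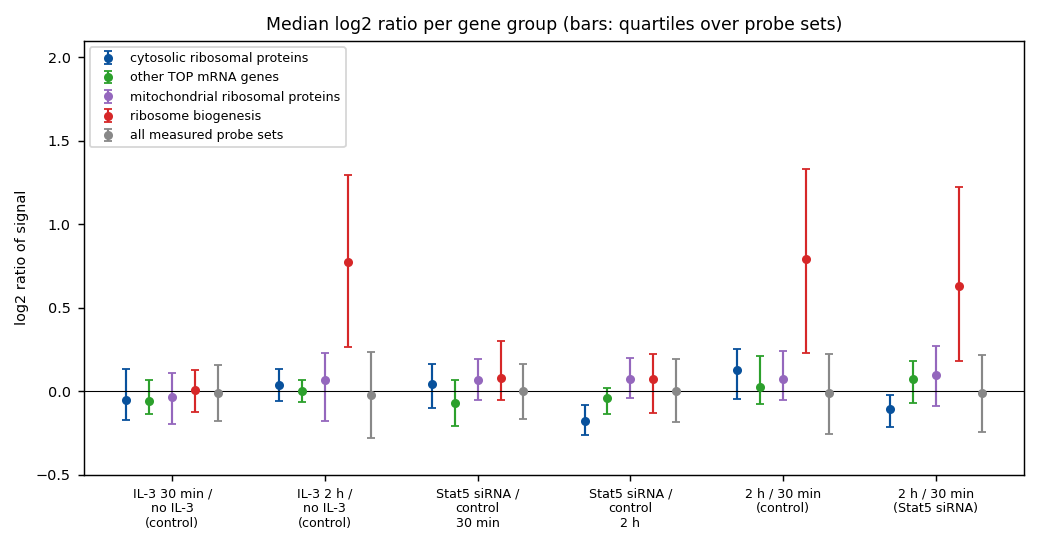
Median log2 ratio (point) and quartiles over probe sets (bars) of cytosolic ribosomal proteins, other TOP mRNA genes, mitochondrial ribosomal proteins, ribosome biogenesis genes and all measured probe sets in 6 comparisons. Over probe sets the biogenesis median is 0.77 for IL-3 at 2 h, against 0.038 for the ribosomal proteins, and the ribosomal protein median is the lowest of the groups for Stat5 siRNA at 2 h, at -0.18.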

How the data were processed

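RNA from 15 arrays was analysed. Each deposited value is the intensity of a probe set on a linear scale, computed by the authors with MAS5, per the series' design text; detection calls and probe-level data were not used here. Trimmed means, leaving out 2% at each end, were 150.04 to 150.10, and each array was rescaled to 150. The floor was the signal that 14553 of 36701 non-control probe sets reached on at least 1 array, the number that passed the submitters' filters; signals under it were raised to it before log2 ratios, so such ratios are bounds. Array to array correlations of log2 signals were 0.91 to 0.97 (U74A), 0.85 to 0.96 (U74B) and 0.88 to 0.92 (U74C). The number of arrays limits the precision, and no batch was stated.

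Names came from the platform annotation (29131 probe sets with 1 symbol, 724 with several, 6846 with none); 0 member symbols changed against GRCm38.p6. Gene values are medians over measured probe sets, and types ending _f_at, _i_at or _r_at, which can cross-hybridise, entered only where a gene had no other. Members, lists and thresholds were chosen with earlier results of these data known. Named are members past 2-fold, the 3 highest and 3 lowest genes per comparison, paralogs, the 2 brightest members per role group, Rplp0 and Rpsa; further members were named after their values were seen. Protein sequences were not used here. Scripts ran in Python 3.11.15 with pandas 2.3.3 and numpy 2.4.6 and were tested on simulated data.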

Additional observations from a re-analysis of the deposited data

Results flagged for a closer look

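For the 22 bright ribosomal protein probe sets on U74A the median log2 ratio of Stat5 siRNA over control siRNA was 0.115 at 30 min and -0.178 at 2 h. It was picked out because the sign differed between the times. In the same way the median ratio of IL-3 over no IL-3 was -0.0997 at 30 min and 0.0499 at 2 h. The IL-3 and the Stat5 siRNA ratio of a time share the control IL-3 array, which enters them with opposite sign. With 1 array per condition neither difference between the times was tested.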

How the results depend on the processing

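Over 16 alternatives the members' median log2 ratio ranged from -0.14 to 0.00 (IL-3 30 min), -0.011 to 0.054 (IL-3 2 h), -0.055 to 0.11 (Stat5 siRNA 30 min), -0.18 to 0.00 (Stat5 siRNA 2 h), 0.00 to 0.14 (2 h against 30 min, control siRNA) and -0.14 to 0.054 (2 h against 30 min, Stat5 siRNA). Both lower ends of -0.14 came from the alternative that put the probe sets naming several genes in place of the members. The members' median turned sign for Stat5 siRNA at 30 min under median scaling (-0.055) and quantile normalization (-0.028). It also turned for IL-3 at 2 h under quantile normalization (-0.011). For 2 h against 30 min with Stat5 siRNA it turned under median scaling (0.054). Median scaling moved the median of all U74A probe sets by -0.10 in the first and 0.19 in the last of these, and that of U74C by 0.17 and 0.21 for IL-3 at 30 min and 2 h.

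Members 2-fold higher at 30 min of IL-3 numbered 2 with the floor halved or signals not raised to it, when 1 member was also 2-fold lower at control 2 h against 30 min. They numbered 0 with the floor doubled or as a pseudocount, and 0 at both times on U74A only, on U74A and U74B only, or over bright members, since Rps13 is on U74C. At 1.5-fold, 2 were lower (IL-3 30 min), 3 higher (IL-3 2 h), 1 higher (Stat5 siRNA 30 min), 1 lower (Stat5 siRNA 2 h) and 1 lower (2 h against 30 min, Stat5 siRNA). Of 464 alternative values for 36 named ratios, 14 moved by more than the spread between probe sets of one gene. Turned signs were counted only for named ratios of at least 2-fold, which were the IL-3 ratios of Rps13, and 0 of these turned. The splits by brightness and the probe sets with several genes were chosen after seeing the data. No paired analysis was possible because each condition had 1 array per design and the labels give no replicate numbers. Low signals limit the dim members, whose ratios are bounds where an array was under the floor.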
